A study of Mus musculus with 2 samples.

Results

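The Hox genes and the 2 Evx genes were examined in ureters of mouse embryos in which Gata6 was conditionally deleted. The set was formed by name: it holds every non-control probe whose gene name was Hoxa, Hoxb, Hoxc or Hoxd with a paralog number, or Evx1 or Evx2. This gave 48 of the 39429 probes on the array, for 41 genes, of which 39 were Hox genes. Of the 41 genes, 37 were among the 19801 genes with a probe well above background and entered the test, and 4 did not (Hoxb1, Hoxb13, Hoxc12 and Hoxc13).

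RNA came from ureters of NMRI mouse embryos at E14.5. The Gata6cKO embryos were Tbx18(cre/+);Gata6(fl/fl): they carried a cre recombinase in a Tbx18 allele, which is active in the mesenchyme around the ureter and in its descendants, and both their Gata6 alleles were floxed. The control embryos were Gata6(fl/?), so that their second Gata6 allele is not given and their label names no cre. Every Gata6cKO RNA differs from control by the deletion, by cre and by the altered Tbx18 allele, and these cannot be told apart. Each of the 2 two-colour arrays held 1 Gata6cKO and 1 control RNA. The first array held male RNAs, with Gata6cKO in Cy5, and the second held female RNAs, with Gata6cKO in Cy3. Sex and dye orientation hence cannot be told apart. Whether embryos were pooled or shared a litter is not given in the labels, so the spread between these samples may be technical. The p-values measure only that spread, and mostly as pooled over all genes tested (11.9 prior and 1 residual degrees of freedom).

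Hox genes encode homeodomain transcription factors and lie in 4 clusters, in each of which the order of the genes along the chromosome follows the order of their domains along the body axis. Genes at the same place in different clusters are paralogs and carry the same number. Those with the highest numbers act in the most posterior structures, among them the urogenital sinus, the genital tubercle and the distal limb. Evx1 and Evx2, relatives of the fly gene even-skipped, flank the posterior ends of the Hoxa and Hoxd clusters. Hox11 paralogs are known to be required for kidney induction, and Hox13 paralogs for the lower urogenital tract.

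Median spot intensity was between 224 and 232 in Cy3 and between 425 and 442 in Cy5, over a local background of 23 to 24 and 83 to 85. Between 67.2% and 68.5% of spots in a channel were well above background, and 0 spots were saturated. Upk2, a uroplakin of the urothelium, was measured at 10.07 and 9.79 in the control RNAs on the log2 intensity scale, and Acta2, the smooth muscle actin, at 13.16 and 12.08. The Gata6 probe was brighter in Gata6cKO, at 14.46 against 13.61 in males and 14.45 against 14 in females. Its place relative to the floxed part is not known here, so it does not check the deletion. All levels below are normalised log2 intensities, comparable between RNAs for the same probe and not between probes. All ratios are log2 of Gata6cKO over control, given as mean ± SE over 2 arrays from limma, with Benjamini-Hochberg adjusted p-values over 19801 genes and a threshold of 0.05.

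Of the 37 measured genes, 7 rose in Gata6cKO: Evx1, Hoxd13, Hoxc11, Hoxd12, Hoxd1, Hoxd11 and Hoxd10. Over all genes tested, 2.20% rose. Evx1 entered the test only through the Gata6cKO RNAs, where it is bright; with a filter in both genotypes, 6 of 36 measured genes rose. None of the 37 genes fell, against 2.35% of all genes, and none of them was lower at an unadjusted limma p under 0.05 either (6.10% of all genes were). At that unadjusted threshold 15 of the 37 were higher, against 5.26% of all genes. The median log2 ratio of the 37 genes was 0.21, 0.10 in males and 0.33 in females, where the median of all genes was 0. On both arrays 20 of the 37 ratios were above 0 and 3 were below 0, while 14 had opposite signs. Of all 19801 genes these were 4627, 5041 and 10133. In these whole ureters, a change in the share of cells that express a gene and a change in RNA per cell cannot be told apart.

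The rises lay mostly in the Hoxd cluster and at its posterior end. Of 9 measured Hoxd genes 5 rose (median 0.47), of 7 Hoxc genes 1 rose (median 0.38), and of 11 Hoxa genes and 8 Hoxb genes 0 rose (medians 0.26 and -0.03). Since 2.20% of all genes rose, 0 of 11 Hoxa genes and 0 of 8 Hoxb genes are near that share. At an unadjusted limma p under 0.05, 5 of the Hoxa genes and 0 of the Hoxb genes were higher, against 5.26% of all genes. Grouped by paralog number across the clusters, 5 of the 9 measured genes of groups 10 to 13 rose, with a median of 0.47, and all 9 had ratios above 0 on both arrays. In groups 1 to 9, 1 of 26 measured genes rose, near the share of all genes, with a median of 0.10. This cut was chosen with results of these data known. With the cut between groups 8 and 9, 5 of 13 measured genes of groups 9 to 13 rose (median 0.39). Of these 13, 10 were above 0 on both arrays and 1 was below 0 on both. In groups 1 to 8, 1 of 22 rose (median 0.14). These are counts in 1 fit, and no test compared the clusters or the paralog groups with each other.

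**Figure D1:**
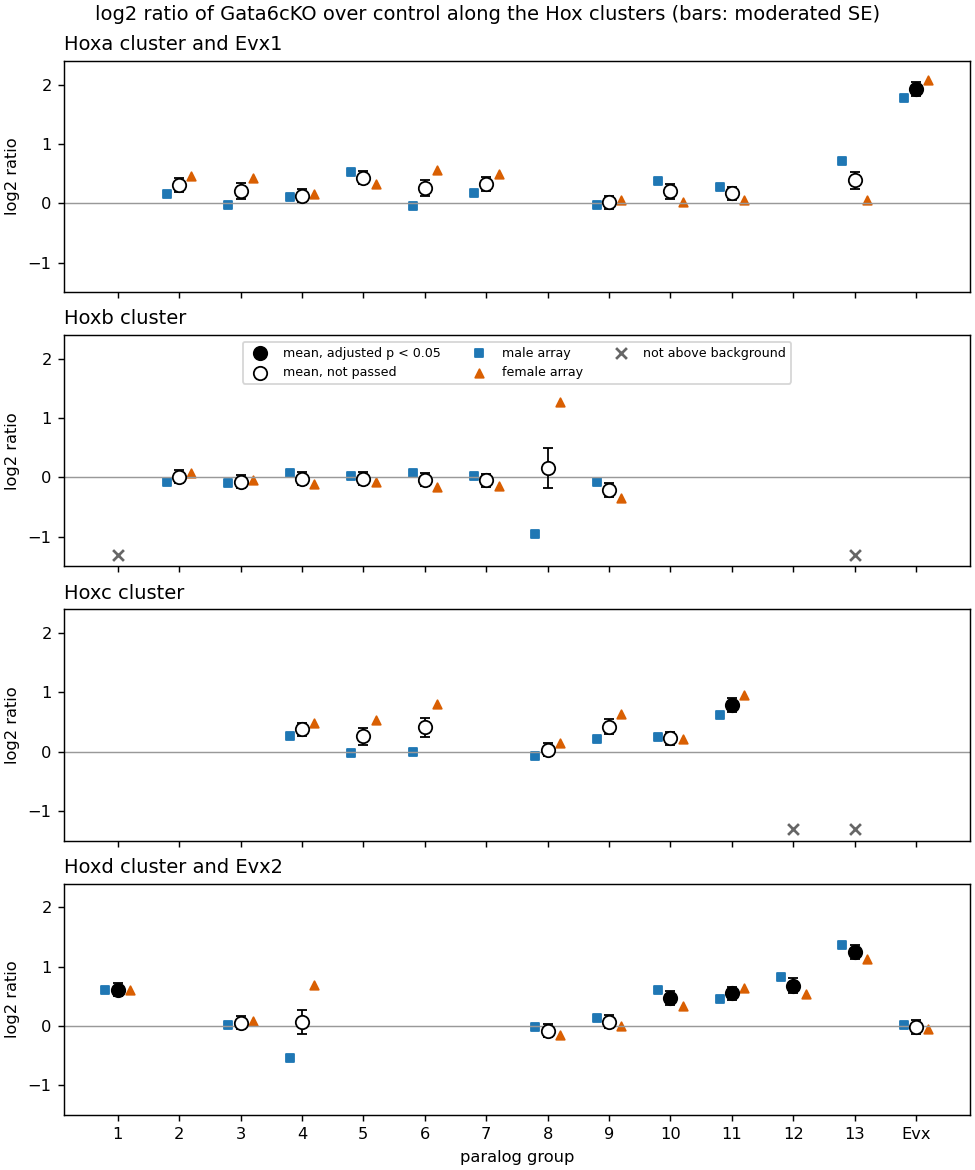
Log2 ratio of Gata6cKO over control for each Hox and Evx gene, in 4 panels by cluster, ordered by paralog group. Squares are the male array, triangles the female array and circles the mean with its SE, filled where the gene passed the test; crosses mark genes not above background, and 1 measured Hoxa gene is not drawn. The 4 genes Hoxd10 to Hoxd13 lie between 0.34 and 1.37 on both arrays, and Hoxd9 next to them lies at 0.14 and 0.00.

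Hoxd13, a gene of the limb, genital tubercle and urogenital sinus, rose most among the Hox genes. Its level was 9.44 in the control male, 9.70 in the control female, 10.81 in the Gata6cKO male and 10.83 in the Gata6cKO female. The Gata6cKO RNAs were almost equal and both lay above both control RNAs. The log2 ratio was 1.37 in males and 1.12 in females, with a mean of 1.25 ± 0.12, a 2.37-fold rise (limma adjusted p = 2.93e-05) that was the 30th largest of the 19801 genes. The probe lies at chr2:74509248-74509307 on mm9. Its first 30 bases on that strand are shown because the largest Hox rise rests on this probe alone:
Hoxd13 probe: aaatgttgcgtatttatgggactgaaagat

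Hoxd12 and Hoxd11, the next genes of the cluster, rose less. Hoxd12 was at 10.44 and 10.85 in the male and female controls and at 11.27 and 11.39 in Gata6cKO. Both Gata6cKO levels exceeded both control levels, and the log2 ratio of 0.68 ± 0.12 equalled 1.60-fold (adjusted p = 0.00323). Hoxd11, which with its paralogs is needed for outgrowth of the ureteric bud, was at 12.53 and 12.60 in controls and 12.99 and 13.24 in Gata6cKO. Again the genotypes did not overlap. The log2 ratio was 0.55 ± 0.11, or 1.47-fold (adjusted p = 0.0108), and a second Hoxd11 probe gave 0.43 on either array. The Hoxd12 and Hoxd11 calls were not reached under some settings: with arrays centred on their medians the adjusted p was 0.394 for Hoxd12 and 1 for Hoxd11, and with the channels fitted separately it was 0.0537 and 0.0509. Without the filter on dim probes it was 0.0533 for Hoxd11.

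Hoxd10 was at 11.36 in the control male and 11.63 in the control female. Both Gata6cKO RNAs were at 11.97, above both controls. The log2 ratio was 0.61 in males and 0.34 in females, with a mean of 0.47 ± 0.12, or 1.39-fold (adjusted p = 0.034), the smallest of the 7 rises. With median centring the adjusted p was 1, without the filter on dim probes 0.114 and with the channels fitted separately 0.105. Among the 4 neighbours Hoxd13 had the highest ratio on each array, but the order of the other 3 was not the same on both: it ran Hoxd12, Hoxd10, Hoxd11 in males and Hoxd11, Hoxd12, Hoxd10 in females. Their probes span 23.0 kb from Hoxd10 to Hoxd13.

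Past Hoxd10, Hoxd9, Hoxd8 and Hoxd3 had mean ratios close to 0. Hoxd9 was at 11.08 and 11.22 in controls and 11.22 and 11.22 in Gata6cKO, with a log2 ratio of 0.07 and a 95% interval from -0.17 to 0.31. Hoxd8, whose probe lies 12.9 kb from that of Hoxd10, had a ratio of -0.08 (interval -0.32 to 0.16), and Hoxd3 one of 0.05 (-0.19 to 0.29). The intervals of these 3 genes hold no change as large as the 1.39-fold rise of Hoxd10. Hoxd4, between Hoxd8 and Hoxd3, had ratios of opposite sign on the arrays, given with Hoxb8, and its interval of -0.37 to 0.51 does hold such a change. The anterior end differed again: Hoxd1 rose from 8.38 and 8.18 in controls to 8.98 and 8.79 in Gata6cKO. Its ratios of 0.60 and 0.61 were nearly the same on both arrays (mean 0.61 ± 0.11, 1.52-fold, adjusted p = 0.00485, or 0.52 with median centring). The Hoxd1 probe lies 17.2 kb from that of Hoxd3, so that the risen genes of the cluster were at both of its ends with genes that did not pass between them.

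Evx2 lies beyond Hoxd13 at 15.7 kb between probes, and it did not follow. The Evx2 probe above background was at 8.82 and 8.88 in controls and at 8.85 and 8.81 in Gata6cKO, with a log2 ratio of -0.02 ± 0.11 and a 95% interval of -0.26 to 0.22. The second Evx2 probe had 0 of 4 spots well above background in every RNA. The probes differ in composition: the measured probe has 83.3% G and C with an unbroken run of 17 such bases, the highest share among the 48 probes (median 39.15%, lowest 30%), and the other has 60%. Whether the measured signal is Evx2 RNA was not tested. A 30-base stretch of each is shown because the reading of Evx2 rests on them, with the longest run of G and C in capitals, at chr2:74493573-74493602 and chr2:74494095-74494124 on the minus strand of mm9:
Evx2, measured: cctgctgccgctaGGGGGCGCCCCGGGGGG
Evx2, not above background: gtgcgctttcacatccttattCGCGGCCGG

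Evx1, at the posterior end of the Hoxa cluster, was bright in Gata6cKO and dim in control. The control RNAs were at 6.89 and 6.66, and only 2 and 1 of 4 control spots were well above background. The Gata6cKO RNAs were at 8.66 and 8.74, with 4 of 4 spots well above background in each. The log2 ratio was 1.77 in males and 2.08 in females (mean 1.93 ± 0.12, adjusted p = 2.11e-06). Since the control was not well above background, the rise is a bound: Evx1 was at least 3.68-fold higher. The bound set the Gata6cKO mean against the control level in males (6.89) and a floor in females (6.75). This floor is the lowest control signal of probes well above background, and the male control lay above its own floor of 6.75. A stretch of the Evx1 probe, at chr6:52268328-52268357 on mm9, is shown because the rise rests on this probe alone. In capitals are the letters AATAAA, which are those of a polyadenylation signal; whether they act as one was not tested:
Evx1 probe: ttaaccatattgcAATAAAagctgaacatg

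The Hoxa genes beside Evx1 did not pass the test. Hoxa13, 59.3 kb away between probes, was at 9.25 and 9.30 in controls and 9.97 and 9.35 in Gata6cKO, so that the male RNA stood apart and the female one was near the controls. Its log2 ratio was 0.39 ± 0.14 (0.72 in males, 0.06 in females; adjusted p = 0.223), with a 95% interval from 0.08 to 0.70. The second Hoxa13 probe gave 0.62 and 0.27. Hoxa11 and Hoxa10, paralogs of the risen Hoxd11 and Hoxd10, had ratios of 0.17 (-0.08 to 0.41) and 0.20 (-0.06 to 0.46). Of the others Hoxa5 came nearest, at 0.53 and 0.33 (adjusted p = 0.0506), and passed under 4 other settings. Hoxa2, Hoxa3, Hoxa4, Hoxa6 and Hoxa7 lay between 0.13 and 0.33, and Hoxa9 at 0.02. In all, 8 of the 11 Hoxa genes were above 0 on both arrays, and 0 were below 0 on both.

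**Figure D2:**
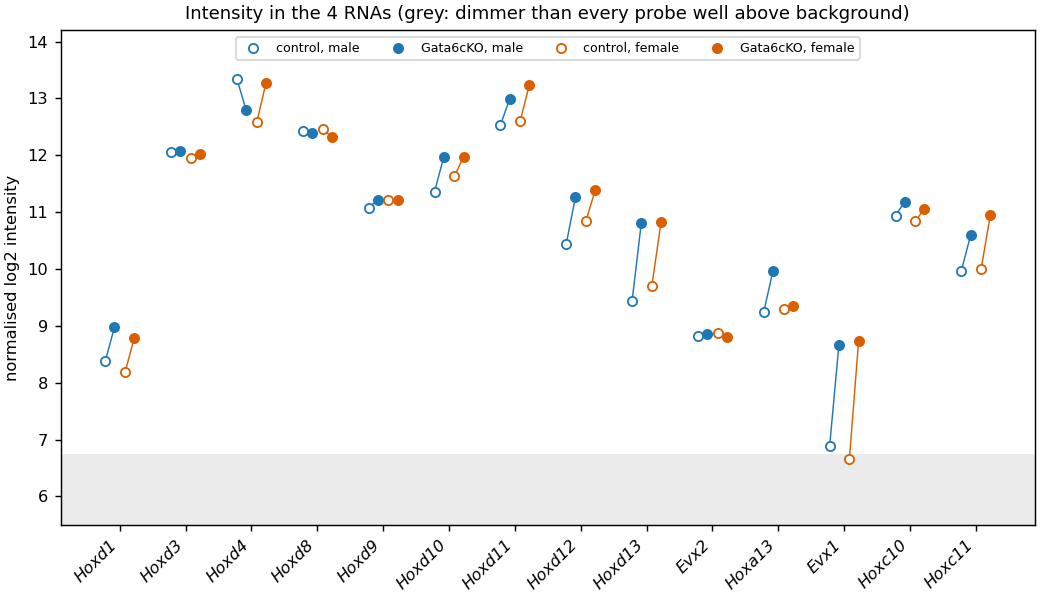
Normalised log2 intensity of the genes that rose and of neighbours in their clusters, with 1 point for each of the 4 RNAs, and in grey the range dimmer than every probe well above background. Lines join the RNAs of an array. The Evx1 controls, at 6.89 and 6.66, lie just above and within that range, and both Gata6cKO RNAs at 8.66 and 8.74 are clear of it.

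In the Hoxc cluster Hoxc11 rose. It was at 9.97 and 10 in controls, which were nearly equal, and at 10.59 and 10.95 in Gata6cKO. The log2 ratio was 0.79 ± 0.12 (0.62 in males, 0.96 in females), or 1.73-fold (adjusted p = 0.0013, and 0.135 with median centring). Its neighbour Hoxc10 had ratios of 0.25 and 0.22 (mean 0.23, 95% interval -0.01 to 0.47, adjusted p = 0.472). Hoxc12 and Hoxc13, on its posterior side, had 0 of 4 spots well above background in every RNA. The Hoxc11 probe lies in the homeobox, as does that of Hoxd10. The 2 probes overlap by 31 bases when the homeobox is aligned, of which 22, in capitals, are identical, so that binding of one gene's RNA to the other's probe is a possibility that was not tested. They lie at chr15:102787022-102787081 and chr2:74532280-74532339 on mm9:
Hoxc11: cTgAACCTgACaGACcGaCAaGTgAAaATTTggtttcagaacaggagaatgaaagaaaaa
Hoxd10: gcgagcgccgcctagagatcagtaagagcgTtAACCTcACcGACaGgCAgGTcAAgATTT

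The other Hoxc genes were above control on the female array more than on the male one. Hoxc9 was at 11.20 and 10.78 in controls and 11.40 and 11.42 in Gata6cKO (ratios 0.21 and 0.64, adjusted p = 0.0868). Hoxc6 was at 12.85 and 12.16 in controls and 12.85 and 12.98 in Gata6cKO (ratios 0.00 and 0.81, adjusted p = 0.259), so that the control female alone was low. Hoxc5 had ratios of -0.03 and 0.54 and Hoxc4 of 0.27 and 0.48 (adjusted p = 0.588 and 0.0975). Hoxc8 was dim, with a ratio of 0.03 (interval -0.22 to 0.28).

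The 8 measured Hoxb genes stayed within -0.21 and 0.16 in the mean. Apart from Hoxb8 the ratios ran from -0.21 for Hoxb9 (95% interval -0.47 to 0.04) to 0.01 for Hoxb2 (-0.24 to 0.25), with 0 of these 7 above 0 on both arrays. Hoxb3, Hoxb4, Hoxb5, Hoxb6 and Hoxb7 lay between -0.07 and -0.02. A second, dimmer Hoxb3 probe was above 0 on both arrays, at 0.17 in males and 0.05 in females. With the mean of probes the Hoxb3 ratio was 0.02. The upper bound of these 7 intervals was at most 0.25, below the mean ratio of each risen Hox gene. Hoxb13, the posterior end of the cluster and known for its role in the prostate and hindgut, had at most 1 of 4 spots well above background in any RNA, and Hoxb1, at the anterior end, had 0.

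Hoxb8 and Hoxd4 went in opposite directions on the 2 arrays. Hoxb8 was at 11.68 in the control male and 10.72 in the Gata6cKO male, and at 10.54 in the control female and 11.81 in the Gata6cKO female. Its ratios were -0.95 and 1.27, and only 2 of the 19801 genes, Hoxb8 included, differed as much between the arrays. Hoxd4 was at 13.34 and 12.79 in the control and Gata6cKO males and at 12.58 and 13.27 in the females, with ratios of -0.55 and 0.69. A difference between arrays at least as large occurred in 56 genes (0.283%). For both genes the RNA labelled with Cy3 was the brighter one on each array, and sex and dye cannot be told apart. Opposite signs with both sizes above the prior SD of 0.162 occurred in 1297 genes (6.55%), and among the members these were Hoxb8 and Hoxd4.

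**Figure D3:**
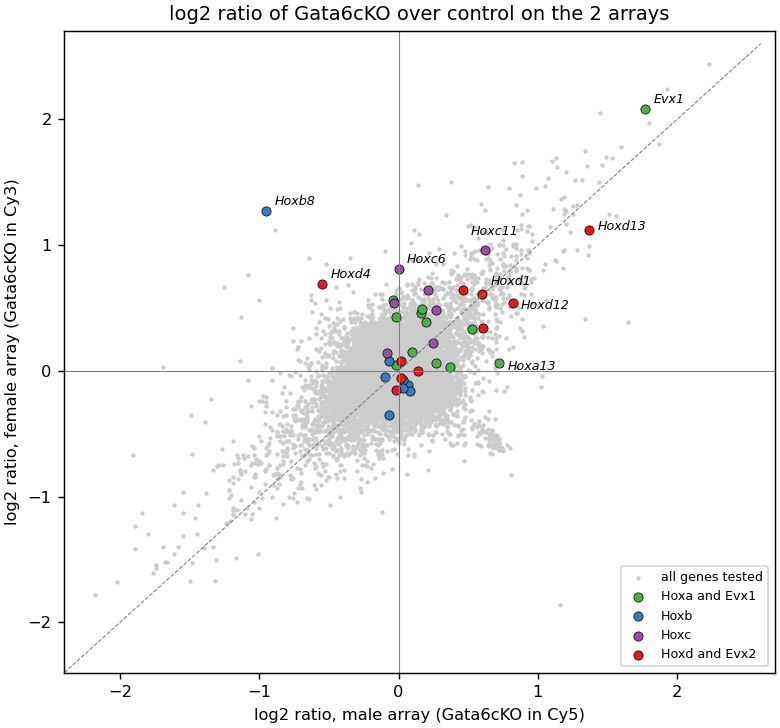
Log2 ratio of each measured Hox and Evx gene on the male array (horizontal) and the female array (vertical), coloured by cluster, over all genes tested in grey, with a dashed line of equality. Genes that rose lie to the upper right, led by Evx1 at 1.77 and 2.08 and Hoxd13 at 1.37 and 1.12. Hoxb8 at -0.95 and 1.27 and Hoxd4 at -0.55 and 0.69 lie to the upper left.

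For the other members the arrays were closer together. The SD between arrays had a median of 0.15 over the measured genes, and a highest value of 1.57, that of Hoxb8. The SD between the 4 spots of a probe had a median of 0.04 on each array and did not exceed 0.10 in males and 0.16 in females among the probes above background. The spots are technical repeats of the same labelled RNA, so this smaller spread says nothing about the variation between embryos.

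Promoter sequences were read for the members listed in the RefSeq promoter table (GRCm38.p6), where 24 of the genes have 26 windows. In the 250 bases before the start, the letters GATAA, part of the sequence that GATA factors bind, were searched on both strands, as was CAATAAA, a run that HOX13 proteins bind. GATAA was present in 5 of the 26 windows, and in 22.6% of all 32851 windows of this length. Of the risen genes with a window, Hoxd12 had it, and Hoxd13, Hoxd11, Hoxd10, Hoxd1 and Evx1 did not. CAATAAA was present in 3 of 26 windows, those of Evx1, Evx2 and Hoxb8, and in 4.20% of all windows. A match describes these letters only, and no match says nothing of a factor's binding elsewhere. The windows of the 3 strongest posterior risers with an entry are shown, with a match in capitals; that in Hoxd12 is GATAA on the reverse strand, 106 bases before the start, and that in Evx1 is CAATAAA, 230 bases before it. They lie at chr2:74667975-74668224, chr2:74674763-74675012 and chr6:52313248-52313497, all on the plus strand:
Hoxd13: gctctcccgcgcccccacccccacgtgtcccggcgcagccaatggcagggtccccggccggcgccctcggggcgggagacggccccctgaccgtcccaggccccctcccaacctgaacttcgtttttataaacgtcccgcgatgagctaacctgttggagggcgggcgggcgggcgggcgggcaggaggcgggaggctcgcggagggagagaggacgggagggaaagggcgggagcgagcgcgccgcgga
Hoxd12: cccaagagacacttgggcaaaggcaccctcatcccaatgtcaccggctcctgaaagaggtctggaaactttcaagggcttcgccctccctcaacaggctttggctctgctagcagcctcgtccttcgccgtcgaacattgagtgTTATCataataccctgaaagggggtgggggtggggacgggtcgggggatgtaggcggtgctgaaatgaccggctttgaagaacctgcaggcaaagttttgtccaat
Evx1: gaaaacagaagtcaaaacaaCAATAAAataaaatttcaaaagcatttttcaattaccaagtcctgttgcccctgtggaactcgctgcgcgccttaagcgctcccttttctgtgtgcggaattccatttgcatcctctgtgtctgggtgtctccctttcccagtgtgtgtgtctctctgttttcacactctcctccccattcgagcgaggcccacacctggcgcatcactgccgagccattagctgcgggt

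Noncoding RNAs of the clusters were measured for 7 of 28 listed names, 9 of which are on the array. Hoxaas3, an antisense RNA within the Hoxa cluster, rose: it was at 11.46 and 11.37 in controls and 11.78 and 12.03 in Gata6cKO (log2 ratio 0.49 ± 0.12, adjusted p = 0.0334). The call was not reached with median centring, without the filter on dim probes, or with the channels fitted separately. None of the 7 fell, and at an unadjusted limma p under 0.05 3 were higher and 0 lower, against 5.26% and 6.10% of all genes. Hoxaas2 (0.37, adjusted p = 0.0973), Hoxa11os (0.30, adjusted p = 0.224) and Haglr, beside Hoxd1 (0.18, adjusted p = 0.774), did not pass. Evx1os, which is divergent to Evx1, had 0 of 16 spots well above background, and Hottip, beside Hoxa13, had 2 of 16.

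Genes that flank the clusters were set beside them, since these share the chromosome region and not the homeobox. Of 32 measured flanking genes 0 rose and 1 fell (2.20% and 2.35% of all genes), with a median log2 ratio of 0.00. At an unadjusted limma p under 0.05, 1 was higher and 2 were lower (5.26% and 6.10% of all genes), so that these counts are near the background. Nfe2l3, a transcription factor gene on the anterior side of Hoxa, fell by 0.44 on the log2 scale (adjusted p = 0.0408). The call was not reached with median centring, without the filter on dim probes, with the mean of probes or with separate channels, and the ratio was -0.79 with the processed intensities and -0.81 with the deposited series values. Lnpk and Mtx2, which border the Hoxd cluster on either side, had ratios of 0.08 and 0.11, and Hibadh and Skap2, on the posterior and anterior side of the Hoxa cluster, of -0.01 and 0.21, none of which passed.

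Meis1 and Meis2, which encode homeodomain proteins that bind DNA with HOX proteins, had log2 ratios of -0.02 and 0.19 and did not pass. Among 31 measured regulators of Hox transcription, such as Polycomb and Trithorax genes and retinoic acid receptors, 0 rose and 0 fell (2.20% and 2.35% of all genes). At an unadjusted limma p under 0.05, 3 were higher and 1 lower, against 5.26% and 6.10% of all genes. The absence of calls depended on the settings. Zbtb16 fell with the processed intensities (limma adjusted p = 0.0227), an intensity trend (0.0389) and the deposited series values (0.00451). Cyp26a1 rose with a normexp offset of 16 (limma adjusted p = 0.0483). Cdx1, Cdx2 and Cdx4, which activate Hox genes in the early posterior body, were not well above background.

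Markers of other cells that a dissected ureter could hold moved too, and their part in the Hox changes was not tested. The counts below stand against 2.20% of all genes that rose and 2.35% that fell. Of 13 measured genital tubercle and limb bud markers 3 rose and 0 fell, among them Isl1 (log2 ratio 1.23) and Hand2 (1.26), with a median of -0.01 over the list. Its summed linear intensity was 30100 to 31100 in controls and 35100 to 36700 in Gata6cKO, and Tbx5, Shox2 and Dlx6 were not well above background. Such sums include listed genes not above background and are weighted to the brightest probes. Of 12 hindgut markers 9, among them Cdx2, Cdh17, Vil1 and Fabp1, were not well above background in any genotype, and of the 3 measured Lgr5 rose (0.58). Nerve and glia markers rose in 15 of 19 measured genes with a median of 1.10, with a summed intensity of 112000 to 119000 in controls and 135000 to 142000 in Gata6cKO. Isl1 and Hand2 are also genes of sympathetic neurons.

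Skeletal muscle markers rose in 7 of 11 measured genes (median 0.52). Their sum went from 14000 in control to 22600 in Gata6cKO in males and from 12300 to 17700 in females. Kidney markers rose in 5 of 11 (median 0.33), with sums from 47800 to 71700 in males and from 54600 to 59900 in females. Of the markers of the ureter itself, 9 of 17 urothelial genes and 4 of 9 smooth muscle genes fell and 0 rose in either list (medians -0.57 and -0.29). The shares over all genes were 2.20% for rises and 2.35% for falls. The urothelial sums were 271000 to 291000 in controls and 207000 to 223000 in Gata6cKO, and the smooth muscle sums 38200 to 48400 and 30000 to 36400. Mesothelial markers rose in 2 and fell in 3 of 6 measured genes (median -0.53, sum 46500 to 53000 in controls and 35200 to 38300 in Gata6cKO). The lists share genes, so that their counts are not separate. Krt19 and Upk3b are among the falls of both the mesothelial and the urothelial list. Wt1 is among the rises of both the mesothelial and the kidney list, and Myocd among the falls of both the smooth muscle and the ureteric mesenchyme list. The ureteric mesenchyme list had 1 rise and 2 falls among 12 genes and a median of -0.11. Its sums went from 195000 in control to 189000 in Gata6cKO in males and from 221000 to 205000 in females. The Hox set, with 7 rises and 0 falls in 37 genes and a median of 0.21, thus stood beside lists whose medians ran from -0.57 to 1.10.

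**Figure D4:**
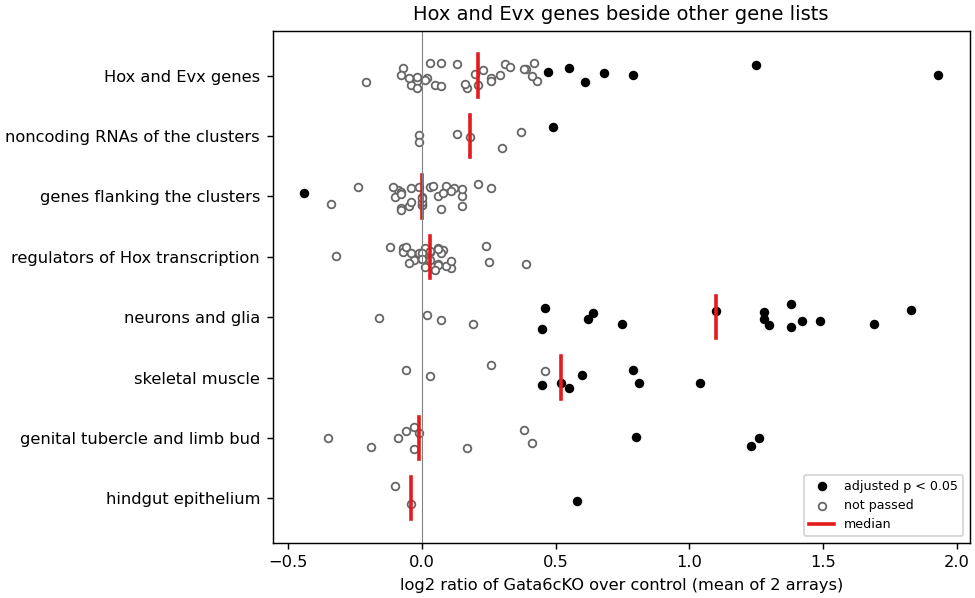
Log2 ratio of Gata6cKO over control for the measured genes of 8 sets (filled points: adjusted p under 0.05, open points: not passed, red bar: median). The Hox and Evx genes have a median of 0.21, nerve and glia markers of 1.10 and genes flanking the clusters of 0.00.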

How the data were processed

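Total RNA of ureters was measured on 2 two-colour Agilent arrays. The deposited scanner files give, per the file headers, raw mean and local background intensity per spot and dye, flags, and a processed intensity that the authors' run of Agilent Feature Extraction (version 10.7.3.1, per the submitters' processing notes) had detrended and corrected for dye by lowess. The deposited series values are a score per probe and array; set against the scanner files (Pearson r of log2 values 0.985 and 0.98 across probes) it corresponds to a linear fold, Gata6cKO over control, with a minus sign for falls and column medians of 1, and how the authors combined spots for it is not given in the sources used here. Probe names and mm9 coordinates come from the scanner files, and 0 per-sample columns were unused.

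From the raw intensities, normexp (offset 50) and loess within arrays were run with limma 3.58.1 under R 4.3.3. The packages statmod 1.5.0 and data.table (1.17.8) were used besides. Spots without an outlier flag (3.51% and 3.71% had one) were averaged per probe. Probes with at least 3 of 4 spots well above background in 1 genotype on both arrays were kept (26200 of 39429), and the brightest kept probe stood for a gene. Of 48 Hox and Evx probes 42 were kept, 41 of them in both genotypes. Log2 ratios, with the sign turned for the dye swap, were fitted with lmFit and eBayes (1 residual and 11.9 prior degrees of freedom) and adjusted by Benjamini-Hochberg over 19801 genes, two-sided. Levels per RNA used quantile normalisation between arrays on the mean intensity. The limma fit alone was tested on simulated log2 ratios. Their spread was drawn from the fit's own prior, so that the prior and the earlier steps were not checked. Only 2 arrays limit the precision.

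Every Hox and Evx gene entered the counts, and a few genes of the set and of the other lists are not reported here by name. Full values were given for those that passed, their neighbours and paralogs; of other lists, members that passed and up to 8 more were named. The members, lists and tests were chosen with earlier results of these data known. The alternatives were the processed intensities, a normexp offset of 16, median centring, no filter, a filter in both channels, the mean of probes, separate channels, an intensity trend in the prior and the deposited series values.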

Additional observations from a re-analysis of the deposited data

Results flagged for a closer look

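Hoxb8 and Hoxd4 moved in opposite directions on the 2 arrays, lower in Gata6cKO than in control in males and higher in females. The log2 ratio of Gata6cKO over control for Hoxb8 was -0.95 on the male array and 1.27 on the female array, and for Hoxd4 it was -0.55 and 0.69. The difference between sexes was not tested, since there is 1 array for each sex and the dyes were exchanged between them.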

How the results depend on the processing

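The number of Hox and Evx genes that rose was 7, and between 5 and 9 with processed intensities, a normexp offset of 16, no filter on dim probes, a filter in both channels, the mean of probes, an intensity trend or the deposited series values. It was 2 (Hoxd13 and Evx1) with median centring in place of loess and 4 with the channels fitted separately; the cause was not tested. Over all genes, 436 rose and 465 fell, against 90 and 100 with median centring (median log2 ratio of all genes -0.03), 275 and 267 with separate channels, 248 and 229 of 29875 genes without the filter, and 672 and 795 with the deposited series values. The number of members that fell was 0 in all 10 fits. Hoxd13 passed in 10 of 10 fits with a log2 ratio of 1.22 to 1.35, and Evx1 in 9 of 9, at 1.93 to 3.28; the filter in both channels leaves Evx1 out, because its control RNA is dim. Hoxa5 passed in 4 alternatives, and Hoxc4 and Hoxc9 in 1 each. No member that passed changed direction under any of these. With either array left out, 1 array remains and there is no test. Signal over background limits Hoxb1, Hoxb13, Hoxc12, Hoxc13 and the control level of Evx1.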
